A study of Mus musculus with 4 samples.

Results

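The genes of cholesterol and fatty acid synthesis were compared between proliferating and hypertrophic chondrocytes of the mouse forelimb. The set holds 30 genes of 34547 in the tables, listed by name from the known pathways, at a time when earlier results of these data were known: 5 regulators, 17 enzymes of sterol synthesis, 1 exporter and 7 enzymes of fatty acid synthesis. All 30 had enough counts to be tested. RNA was sequenced from cartilage that had been cut out of frozen sections with a laser, in C57BL/6 embryos, and the labels name no allele or treatment. Proliferating chondrocytes (PC, replicates 1 and 2) came from embryos at E14.5 and hypertrophic chondrocytes (HC, replicates 3 and 4) from embryos at E15.5 (E counts days of gestation), so cell state and age cannot be told apart. The labels do not say whether the replicates came from separate animals or how many embryos each held, and the p-values measure only the spread between these 4 libraries.

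Cells make cholesterol from acetyl-CoA through mevalonate, farnesyl pyrophosphate, squalene and lanosterol. The transcription factors encoded by Srebf2 and Srebf1 turn on sterol and fatty acid synthesis genes. Scap carries their inactive precursors from the endoplasmic reticulum to the Golgi when sterol is low, and Insig1 and Insig2 hold them back when sterol is high. Cartilage depends on the pathway, since inherited defects of late sterol synthesis enzymes such as Ebp and Nsdhl disturb the skeleton, and hedgehog proteins, which act in the growth plate, carry cholesterol.

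Libraries held between 15246529 (HC 3) and 36644496 (PC 2) estimated counts. HC 3 stood apart, with 17012 genes detected against 17945 to 21352 in the others, 20.16% mitochondrial counts against 8.81% to 14.11%, and 8.75% of counts on the gene model Gm10800 against 1.75% to 2.67%. Summed levels of 6 hypertrophic markers, among them Col10a1, were 192 and 1554 CPM in PC against 32653 and 39429 in HC (CPM, counts per library on a shared scale), which fits the labels. Lists of 6 markers each for other tissues were also higher in both HC libraries than in both PC libraries: muscle (20.7 and 29.4 against 495 and 103 CPM), endothelium (25.3 and 22.4 against 246 and 131 CPM), red blood cells, macrophages, osteoblasts and epidermis. For epidermis the sums were 2.88 and 8.18 CPM in PC against 112 and 174 in HC. Dsp (85.2 and 149 CPM in HC) and Perp (20.7 and 22.2) made up most of the HC sums. Of its other markers, Krt14 and Krt15 were higher in HC but low there, Trp63 overlapped and Krt5 was at 0 in both HC libraries. The 6 adipocyte markers, of another cell type rich in these enzymes, summed to 3.89 and 4.57 CPM in PC against 14.53 and 6.17 in HC, with the fat droplet gene Cidec at 0 in every library. Of those 6, 2 had enough counts to be tested, and neither passed. The part of these cells in the results below was not tested. Fewer cells of a type and less RNA per cell cannot be told apart in such bulk samples.

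Of the 30 genes, 1 rose and 4 fell in HC. Abca1 rose, and Srebf1, Dhcr7, Fasn and Elovl6 fell by edgeR's quasi-likelihood test at an adjusted p under 0.05. Those 5 are 16.7% of the members, against 4.71% of the 16607 genes tested (2.75% higher and 1.96% lower in HC). The median log2 fold change of HC over PC was -0.54 over the members and -0.04 over all genes, with 11 members above 0 and 19 below. In 18 members, or 60.0%, the HC and PC libraries did not overlap (7 with HC above and 11 with HC below), against 61.0% of all genes tested (27.7% above and 33.3% below), a share near the background. The 5 calls had adjusted p-values between 0.0359 and 0.0498, close to the threshold. With scaling to library size alone, with limma on TPM, and with coding transcripts only, none of the 30 passed, and 0.0% of all genes did. DESeq2 called 3 higher and 6 lower (17.2% of all genes either way), the fit with no filter 2 and 4 (7.98%), a length offset 1 and 0 (2.61%), and the fit without mitochondrial genes and Gm10800 1 and 4 (4.7%). Without HC 4 it was 3 higher and 12 lower (39.0% of all genes), without HC 3 it was 2 and 5 (28.3%), without PC 1 it was 1 and 1 (3.49%), and without PC 2 it was 2 and 3 (6.26%). The lower calls that appeared only without HC 4, among leave-outs of 1 library, were Srebf2, Scap, Mvd, Fdps, Lss, Acly, Acss2 and Scd2. At an unadjusted p under 0.05, 11 of 30 members passed, against 27.0% of all genes.

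**Figure D1:**
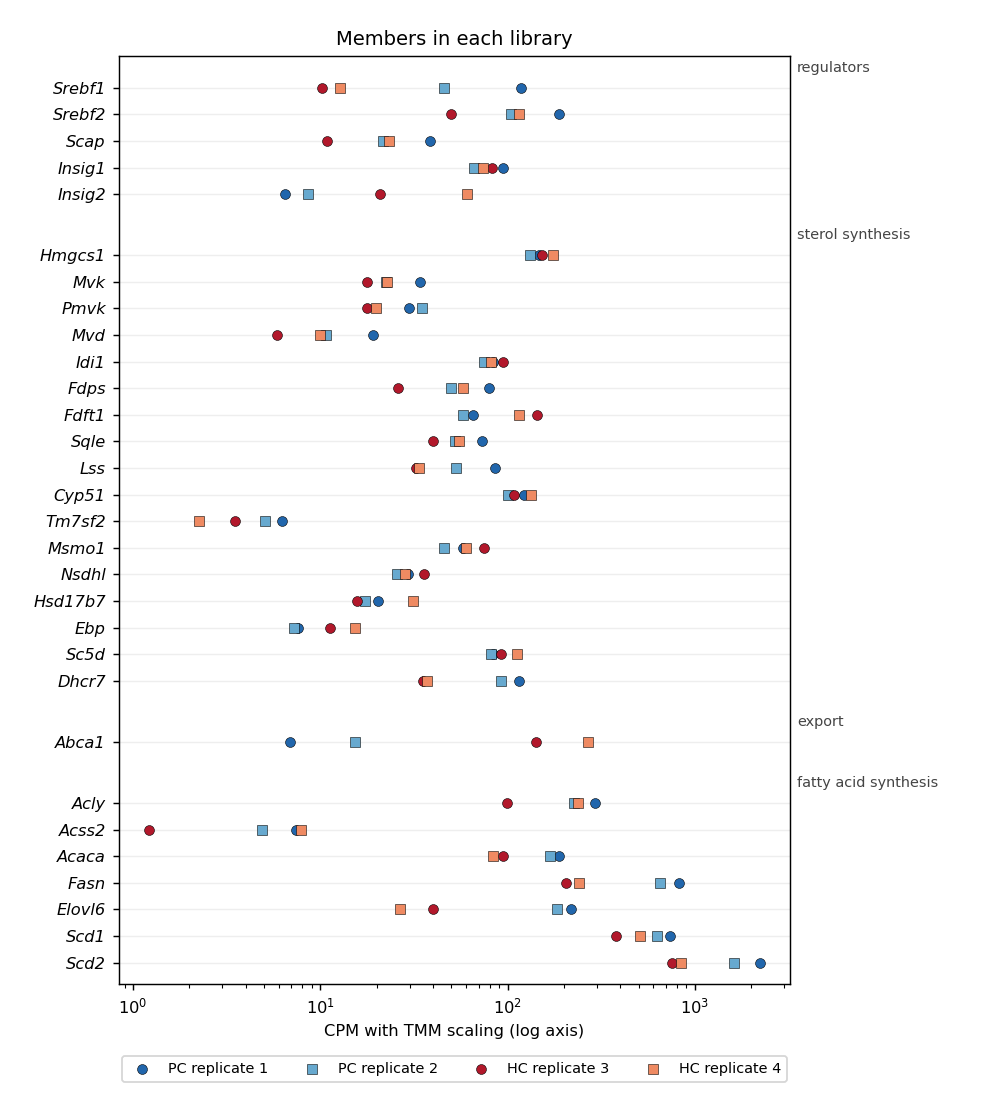
Level of each of the 30 genes in each library, in CPM on a log axis, grouped by role. Each point is 1 of the 4 libraries; Abca1 is separated upward in HC, and Elovl6, Fasn, Dhcr7 and Srebf1 downward.

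The upstream sequences of 4 members are shown because they hold letters like those that sterol and oxysterol sensing factors are known to bind. RefSeq start sites (build GRCm38.p6) were found for 25 of the 30 genes, in 33 windows. Fdps, Fdft1, Sqle, Scd1 and Scd2 are not in the table. Each run is the 250 bases before the start, written 5′ to 3′ on the gene's strand. Capitals mark a sterol regulatory element (TCACNCCAC) in Hmgcs1, and in the other three a DR4 repeat, which is 2 copies of NGGTNA with 4 bases between them on either strand. DR4 repeats are the class of site that the liver X receptors bind when oxysterols are present.
Hmgcs1, chr13:119690101-119690350, plus strand: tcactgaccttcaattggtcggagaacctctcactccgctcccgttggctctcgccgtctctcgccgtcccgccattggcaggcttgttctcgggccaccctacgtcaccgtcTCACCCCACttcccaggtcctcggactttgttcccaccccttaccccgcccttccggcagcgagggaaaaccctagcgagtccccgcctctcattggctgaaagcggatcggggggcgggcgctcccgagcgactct
Abca1, chr4:53159896-53160145, minus strand: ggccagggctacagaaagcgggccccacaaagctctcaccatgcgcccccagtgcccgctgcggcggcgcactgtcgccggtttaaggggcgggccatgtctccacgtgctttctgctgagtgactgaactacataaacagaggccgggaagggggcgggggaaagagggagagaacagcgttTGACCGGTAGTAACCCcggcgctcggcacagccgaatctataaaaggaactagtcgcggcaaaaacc
Fasn, chr11:120824548-120824797, minus strand: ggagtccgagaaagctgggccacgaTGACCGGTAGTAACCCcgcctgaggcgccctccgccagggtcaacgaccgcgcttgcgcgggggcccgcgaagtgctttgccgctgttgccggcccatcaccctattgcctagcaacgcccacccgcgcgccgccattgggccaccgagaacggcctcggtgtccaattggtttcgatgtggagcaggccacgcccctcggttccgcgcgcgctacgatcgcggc
Srebf1, chr11:60210472-60210721, minus strand: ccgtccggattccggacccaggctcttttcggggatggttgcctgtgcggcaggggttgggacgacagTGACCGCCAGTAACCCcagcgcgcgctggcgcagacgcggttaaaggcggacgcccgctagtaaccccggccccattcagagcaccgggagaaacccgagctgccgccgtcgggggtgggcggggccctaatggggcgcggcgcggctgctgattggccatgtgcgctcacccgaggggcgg

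The repeat lay at bases -67 to -52 from the start in Abca1, -225 to -210 in Fasn and -182 to -167 in Srebf1. Abca1 and Fasn held the same run, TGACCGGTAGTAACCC, and Srebf1 held TGACCGCCAGTAACCC. Abca1 rose and the other two fell, so the repeat was found upstream of genes that moved in opposite directions. It was in 0.621% of the 32851 windows in the table. Per gene, it was in 3 of the 25 members (12%) against 0.707% of all genes. The repeat was searched in a loose form with open letters (N), and Abca1 was already known as an oxysterol receptor target. The 12% thus depends on the pattern chosen and tests nothing. The sterol regulatory element lay at -137 to -129 in Hmgcs1, a gene whose level did not differ by the test, and was in 1 of 25 members (4%) against 1.22% of all genes (1.05% of windows). It was searched as TCACNCCAC only, so variant forms of the element were not counted in any gene. The shorter motifs were commoner: the CCAAT box was upstream of 20 of 25 members (80%) against 37.5% of all genes, and the E-box CACGTG of 6 of 25 (24%) against 6.86%. Both strands were searched, none of the 3 repeats overlapped another match, and the motifs were picked with the members' values known. A match describes letters and shows no binding.

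**Figure D2:**
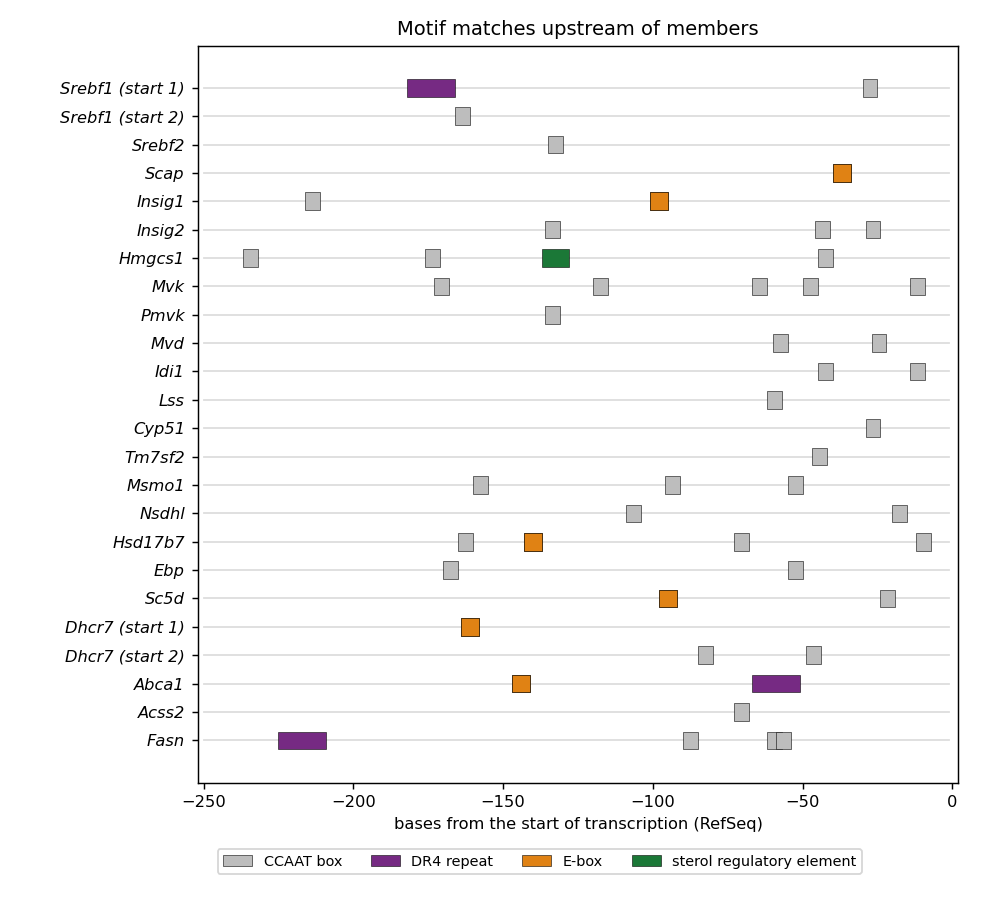
Places of the 4 searched motifs in the 250 bases before the RefSeq start of the members with a match, with distance from the start in bases on the horizontal axis and 1 row per window. The DR4 repeats of Abca1, Fasn and Srebf1 sit at different distances, and CCAAT boxes are spread over most of the rows.

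Among the 5 regulators, Srebf1 fell (20.0% of the 5, against 4.71% of all genes tested) and the others did not pass. Srebf1 (chr11:60199089-60222581) stood at 119 and 45.9 CPM in PC against 10.1 and 12.7 in HC. Both HC libraries were below both PC libraries, and the 2 PC libraries themselves differed widely. The log2 fold change was -2.84 ± 0.53 (SE, n = 2 and 2), or 7.18-fold lower in HC (edgeR, adjusted p = 0.0471). Leaving out PC 1, the higher library, gave -2.04 and an adjusted p of 0.0616, while leaving out any of the other libraries kept the call.

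Srebf1 is transcribed from more than 1 start, and its transcripts differed between the libraries. Srebf1-201, a coding transcript from the upstream start at base 60220604 of chromosome 11, had 26.2 and 6.85 CPM in PC and 0 in both HC libraries. Srebf1-207, a coding transcript that starts at base 60210465, beside the window printed above, had 7.97 and 1.10 CPM in PC and likewise 0 in HC. Of the coding transcript Srebf1-203, 36.6 and 16.4 CPM were assigned in PC and 2.59 and 5.98 CPM in HC. A non-coding transcript, Srebf1-208, held 41.3 and 17.6 CPM in PC against 6.45 and 6.24 in HC. Every one of these 4 was lower in both HC libraries than in both PC libraries. Assignment among transcripts that share sequence is an estimate with no error given in the tables, and no transcript was tested.

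**Figure D3:**
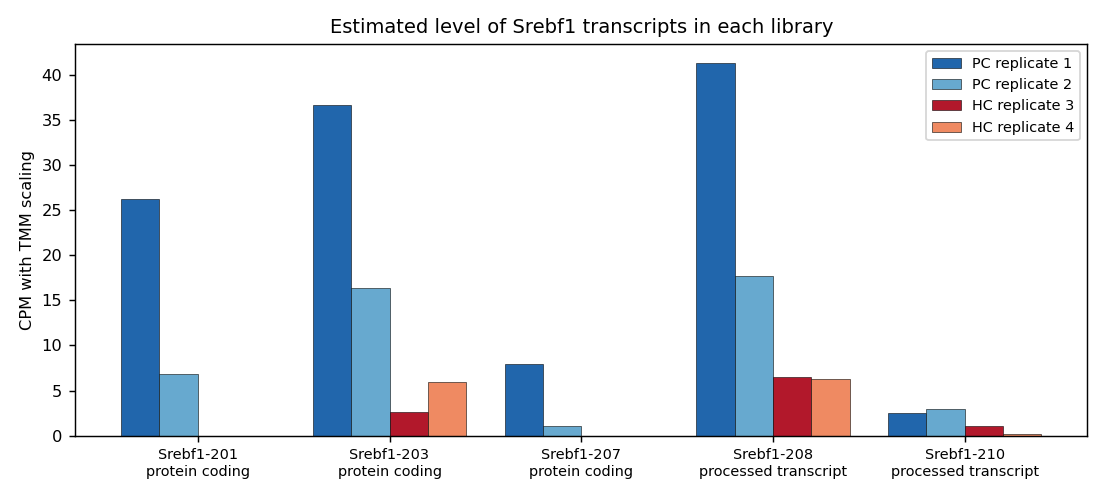
Level of the main Srebf1 transcripts in each of the 4 libraries, in CPM, with 1 bar per library. The PC bars are above the HC bars for each transcript shown, PC 1 is the highest for all but Srebf1-210, and Srebf1-201 and Srebf1-207 are at 0 in both HC libraries.

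Srebf2, the factor that mainly drives sterol synthesis, stood at 187 and 104 CPM in PC against 49.8 and 115 in HC. HC 4 lay between the PC libraries, and the difference of -0.82 ± 0.51 (log2) did not pass (edgeR, adjusted p = 0.358). Without HC 4 it was -1.59 and passed (adjusted p = 0.0204), and without HC 3 or PC 1 it was -0.37. Scap, the escort protein, had the same pattern, with 38.4 and 21.6 CPM in PC against 10.8 and 23.1 in HC. Its difference was -0.82 ± 0.50 (adjusted p = 0.357), and -1.52 without HC 4, which passed (adjusted p = 0.0225). Most of the Scap TPM lay on a short retained-intron transcript of 358 bases in PC 1, PC 2 and HC 4 (85.4%, 86.6% and 93%) and none of it in HC 3. Of the Scap counts, which were tested, coding transcripts held 77.7%, 71.9%, 99.2% and 59.1% in PC 1, PC 2, HC 3 and HC 4.

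The 2 Insig genes, which hold back the precursors, did not share a pattern. Insig1, itself a classic sterol-responsive target, stood at 95.0 and 66.0 CPM in PC against 82.6 and 73.6 in HC, so the HC libraries lay inside the PC range. Insig2 (chr1:121304353-121332589) had 6.48 and 8.54 CPM in PC against 20.9 and 61.0 in HC. Both HC libraries were above both PC libraries, HC 4 the most, and the log2 fold change was 2.45 ± 0.58. That missed the threshold (edgeR, adjusted p = 0.0704) and passed in 5 of the 11 alternatives, with adjusted p-values from 0.00037 to 0.24. The value was 1.43 without HC 4 and 1.33 with limma on TPM.

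The 17 sterol synthesis enzymes did not move as a block. None passed as higher and Dhcr7 alone passed as lower, which is 5.88% of the 17 against 4.71% of all genes tested. By sign, 9 had a positive and 8 a negative log2 fold change, and the median was 0.11, beside -0.04 for all genes. Summed over the 17, the level was 1059 and 862 CPM in PC against 907 and 989 in HC, so the libraries overlapped. With scaling to library size alone the median was -0.14. Under that scaling or with limma on TPM, Hmgcs1, Idi1, Cyp51, Msmo1, Nsdhl and Hsd17b7 changed sign, so the signs printed for them here depend on the measure and scaling. With TMM scaling of counts, Cyp51 also turned without PC 2 (-0.054) or HC 4 (-0.094), and Hsd17b7 without HC 4 (-0.308). Of the 17, 5 were positive with library size alone and 4 with limma on TPM.

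In the part of the pathway that leads to farnesyl pyrophosphate, none of 6 enzymes passed, against 4.71% of all genes tested. The median was -0.56. Hmgcs1, which makes the HMG-CoA from which mevalonate is formed, stood at 146 and 131 CPM in PC against 153 and 175 in HC. Idi1, which isomerises the isoprene unit, had 84.0 and 74.6 CPM in PC against 95.0 and 81.1 in HC. Those 2 were close to level, with log2 fold changes of 0.24 ± 0.28 and 0.15 ± 0.28. The mevalonate kinases Mvk and Pmvk and the decarboxylase Mvd were at -0.48 ± 0.37, -0.78 ± 0.31 and -0.91 ± 0.51, and the farnesyl pyrophosphate synthase Fdps at -0.63 ± 0.47. Their adjusted p-values were 0.457, 0.18, 0.311 and 0.45. For Pmvk and Mvd both HC libraries were below both PC libraries, while for Mvk and Fdps HC 4 lay between the PC libraries.

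From squalene to cholesterol, 1 of 11 enzymes passed (9.09%, against 4.71% of all genes tested), as lower in HC. Dhcr7 (chr7:143823145-143848410), the reductase that turns 7-dehydrocholesterol, also the precursor of vitamin D, into cholesterol, stood at 115 and 91.8 CPM in PC. In HC it had 35.4 and 37.3 CPM, and the replicates of each group lay close together. It was 2.84-fold lower in HC, or -1.50 ± 0.29 on the log2 scale (edgeR, adjusted p = 0.0498). The call ended without PC 1 (-1.37, adjusted p = 0.288) and without PC 2 (-1.69, adjusted p = 0.0614), with the direction kept.

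Sc5d, the desaturase that acts just before Dhcr7, had 83.4 and 81.5 CPM in PC against 92.1 and 112 in HC. The difference, 0.31 ± 0.28 on the log2 scale, did not pass (adjusted p = 0.54). In TPM over coding transcripts, a scale that divides by transcript length, Dhcr7 and Sc5d stood at 61.5 and 69.1 in PC and 14.3 and 89.3 in HC, as means over 2 libraries. The 2 enzymes were thus at similar levels in PC and apart in HC, which no test compared. By library, Sc5d had 67.3 and 70.8 in PC against 64.0 and 114.5 in HC on that scale, so its groups overlapped. Most of the Sc5d TPM was assigned to shorter coding transcripts, and the comparison of the 2 enzymes rests on that estimate. The longest Sc5d transcript, Sc5d-201 (4787 bases), had 12.5 and 9.08 TPM in PC against 0.519 and 3.44 in HC.

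Fdft1, the squalene synthase that commits farnesyl pyrophosphate to sterols, went the other way from Dhcr7. It stood at 65.1 and 58.1 CPM in PC against 144 and 115 in HC, with no overlap, and was 2.10-fold higher in HC. The log2 fold change of 1.07 ± 0.29 missed the threshold (edgeR, adjusted p = 0.0902). Lss, which closes squalene epoxide into lanosterol, had 86.0 and 53.3 CPM in PC against 32.6 and 33.4 in HC, a difference of -1.08 ± 0.34 (adjusted p = 0.115). Coding transcripts held only 27.8%, 17.3%, 3% and 42.3% of the Lss counts of PC 1, PC 2, HC 3 and HC 4, so its gene sum mostly counts other transcripts.

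None of the remaining enzymes of that stretch passed. Sqle, the squalene epoxidase, had a log2 fold change of -0.40 ± 0.33 and Cyp51, the lanosterol demethylase, 0.11 ± 0.30. Msmo1 and Nsdhl, which remove methyl groups from the ring, were at 0.38 ± 0.30 and 0.21 ± 0.32, and Hsd17b7, the ketoreductase of the same complex, at 0.32 ± 0.43. Ebp, the sterol isomerase, had 7.61 and 7.27 CPM in PC against 11.2 and 15.4 in HC (0.84 ± 0.42, adjusted p = 0.269), with no overlap. The reductase Tm7sf2 had 6.22 and 5.09 CPM in PC against 3.49 and 2.25 in HC (-0.98 ± 0.63, adjusted p = 0.376), also with no overlap. The groups of Msmo1 did not overlap either, with HC above PC, and those of Sqle, Cyp51, Nsdhl and Hsd17b7 did. These levels sum all transcripts of a gene. Coding transcripts held 76.4%, 91.7%, 6.8% and 95.6% of the Ebp counts of PC 1, PC 2, HC 3 and HC 4. In coding TPM Ebp had 5.53 and 5.49 in PC against 0.37 and 11.3 in HC, so the groups overlapped. For Tm7sf2 the coding shares of counts were 34.7%, 23.5%, 0.0% and 15.9% in the same order.

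**Figure D4:**
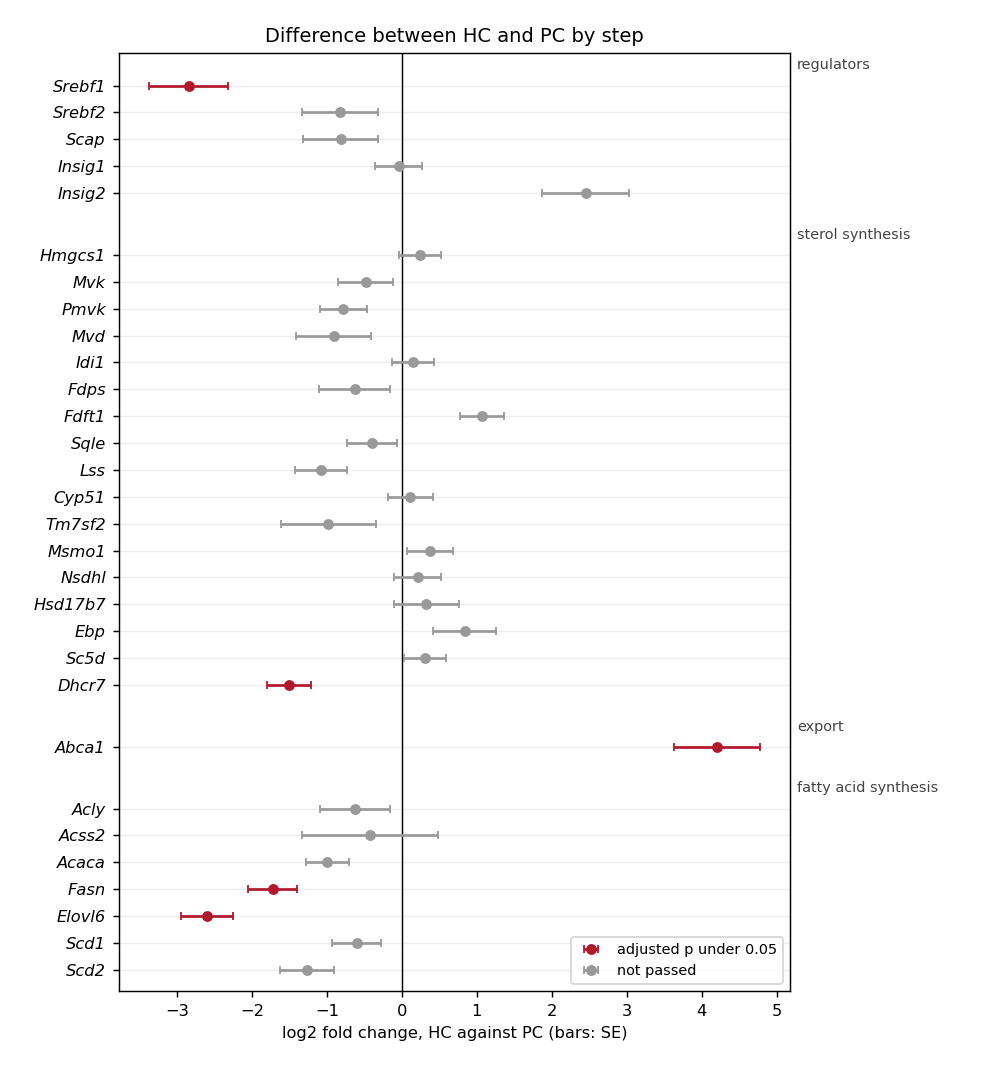
Log2 fold change of HC over PC for each of the 30 genes, ordered by role, with bars of 1 standard error from the edgeR fit and red points for the 5 that passed. Fatty acid synthesis enzymes lie left of 0, sterol synthesis enzymes lie on both sides, and Abca1 is the farthest to the right at 4.20.

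Abca1 (chr4:53030787-53159895), the membrane pump that loads cholesterol onto apolipoprotein outside the cell, rose more than any other member. It stood at 6.89 and 15.4 CPM in PC against 141 and 268 in HC, from 237 and 593 counts against 1740 and 5949. Both HC libraries were far above both PC libraries. The log2 fold change was 4.20 ± 0.57, or 18.4-fold (edgeR, adjusted p = 0.0359), and the call held without each library in turn, with values from 3.62 to 4.86. It passed in 8 of 11 alternatives and missed with scaling to library size alone (0.0515), with limma on TPM (0.0894) and with coding transcripts only (0.0644).

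Abca1 is also abundant in macrophages, whose 6 markers summed to 5.55 and 12.0 CPM in PC against 141 and 58.2 in HC. Their part in the Abca1 difference was not tested. The oxysterol receptors that switch Abca1 on in other cells, Nr1h2 and Nr1h3, were looked up after the values were seen. Nr1h2 stood at 22.0 and 8.57 CPM in PC against 8.04 and 12.6 in HC, and Nr1h3 was under 0.7 CPM in every library. Neither passed (edgeR, adjusted p = 0.577 and 0.866).

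All 7 fatty acid synthesis enzymes had a negative log2 fold change, with a median of -0.99 beside -0.04 for all genes. Of the 7, Fasn and Elovl6 fell and the other 5 did not pass. The background is 4.71% of all genes called. In 5 of the 7 both HC libraries were below both PC libraries, as in 33.3% of all genes, and in Acly and Acss2 the groups overlapped. Their summed level was 4483 and 3470 CPM in PC against 1572 and 1948 in HC. None of the 7 had a positive value under any scaling or filter tried, and without HC 3 the sign of Acss2 alone turned (0.32).

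Acly, which makes cytosolic acetyl-CoA from citrate, had 291 and 225 CPM in PC against 99.5 and 236 in HC. HC 4 lay between the PC libraries, and the difference of -0.62 ± 0.47 did not pass (adjusted p = 0.449). It was -1.42 and passed without HC 4 (adjusted p = 0.0202), and was -0.16 without HC 3. Acss2, which makes acetyl-CoA from acetate, was low, at 7.44 and 4.91 CPM in PC against 1.22 and 7.88 in HC, with 15 counts in HC 3. Acaca, the carboxylase that makes malonyl-CoA and sets the pace of the pathway, had 188 and 168 CPM in PC against 95.0 and 83.9 in HC. The Acaca libraries did not overlap, and its -0.99 ± 0.28 missed the threshold (edgeR, adjusted p = 0.097).

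Fasn (chr11:120805846-120824547), the synthase that builds palmitate, stood at 826 and 647 CPM in PC against 205 and 241 in HC. The groups lay well apart, and the level was 3.31-fold lower in HC (log2 -1.73 ± 0.33, edgeR, adjusted p = 0.0479). Without PC 1 the value was -1.57 and did not pass (adjusted p = 0.112). A short retained-intron transcript, Fasn-203, held 62.8%, 89.8%, 86.5% and 85.7% of the Fasn TPM in PC 1, PC 2, HC 3 and HC 4, although coding transcripts held 77.5%, 56.9%, 63.8% and 64.9% of its counts. Mean TPM of Fasn was therefore 482 in PC and 113 in HC over all transcripts, but 77.7 and 15.6 over coding ones.

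Elovl6 (chr3:129532355-129638495), the elongase that lengthens palmitate to stearate, fell the most of the enzymes. It stood at 217 and 184 CPM in PC against 39.8 and 26.5 in HC. The groups were far apart and the replicates close, at 6.06-fold lower in HC (log2 -2.60 ± 0.35, edgeR, adjusted p = 0.0359). The call held without each library in turn, with values from -2.95 to -2.38. Coding TPM of Elovl6 went from 84.1 and 57.2 in PC to 10.4 and 6.94 in HC.

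The stearoyl-CoA desaturases Scd1 and Scd2, which put the double bond into stearate to give oleate, had the highest mean levels of the 30 genes in TPM over coding transcripts. Over all transcripts Fasn stood above Scd1, with the retained-intron transcript described for it. Scd2 stood at 2221 and 1615 CPM in PC against 750 and 841 in HC, and Scd1 at 733 and 625 CPM in PC against 381 and 512 in HC. Neither gene's groups overlapped, yet neither passed, with -1.27 ± 0.36 for Scd2 and -0.60 ± 0.33 for Scd1 (edgeR, adjusted p = 0.0962 and 0.305). The 2 are paralogs of similar sequence, so the split of reads between them is an estimate. On the coding TPM scale the mean in PC was 514 for Scd2 and 205 for Scd1, ahead of Acly (85.4), Fdps (80.2), Fasn (77.7) and Elovl6 (70.6). In HC, Scd2 (154) and Scd1 (99.6) remained ahead of Sc5d (89.3), and Elovl6 was at 8.68.

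Within a group the members moved together between replicates. PC 1 was above PC 2 in 27 of the 30 genes, against 50.3% of all genes tested, and HC 4 was above HC 3 in 22 of 30, against 51.6%. The median ratio of PC 1 to PC 2 was 1.23 (0.448 to 2.58), and that of HC 4 to HC 3 was 1.22 (0.645 to 6.47). Srebf1 had the widest PC gap with PC 1 higher (118.5 against 45.9 CPM), and Acss2 the widest HC gap. Members are thus not independent of each other, and the counts of members above are descriptions of 4 libraries.

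**Figure D5:**
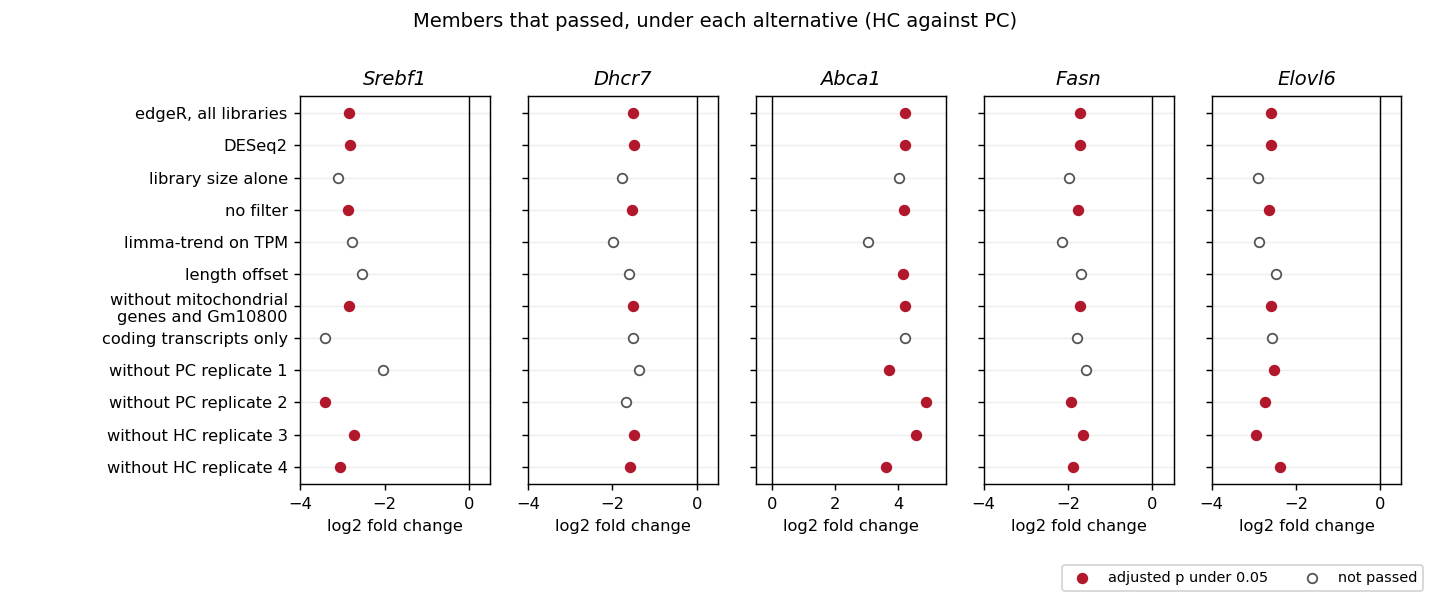
Log2 fold change of HC over PC for the 5 genes that passed, under each way of fitting or leaving out a library, with filled red points where the adjusted p was under 0.05. Every point keeps its side of 0, and Srebf1 ranges from -3.42 to -2.04, Dhcr7 from -1.98 to -1.37, Abca1 from 3.04 to 4.86, Fasn from -2.15 to -1.57 and Elovl6 from -2.95 to -2.38.

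A further list of 50 genes that regulate, carry or modify sterols and fatty acids was set beside the members. Of the 49 tested, 1 rose and 3 fell (8.16% against 4.71% of all genes), with a median of -0.20. Ch25h, which makes an oxysterol, had no count. By sub-list, 0 of 10 sterol regulation genes, 1 of 13 sterol handling genes and 3 of 26 fatty acid and glyceride genes passed.

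Hacd2, a dehydratase of very-long-chain fatty acid elongation, rose. It stood at 40.2 and 85.4 CPM in PC against 594 and 389 in HC, a difference of 2.97 ± 0.49 on the log2 scale (edgeR, adjusted p = 0.0394). It thus moved opposite to the elongase Elovl6, and its call held without each library in turn. Acsl1, which activates fatty acids with coenzyme A, fell from a mean of 76.1 CPM in PC to 19.7 in HC, with no overlap (-1.95 ± 0.37, adjusted p = 0.0479). Fads2, the desaturase that starts polyunsaturated fatty acid synthesis, fell from 228 and 195 CPM to 79.8 and 66.1 CPM. Its -1.53 ± 0.30 (adjusted p = 0.0496) lost the call without PC 1 (0.187) and without PC 2 (0.0509).

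Lrp8, a lipoprotein receptor that also binds reelin, fell from 101 and 92.0 CPM in PC to 20.7 and 8.24 CPM in HC (-2.74 ± 0.50, edgeR, adjusted p = 0.045). Its relative Vldlr stood at 8.40 and 7.22 CPM in PC against 38.9 and 23.3 in HC, the opposite direction, and missed the threshold (1.99 ± 0.41, adjusted p = 0.0538). Mylip, the ubiquitin ligase that removes lipoprotein receptors and is a known oxysterol receptor target like Abca1, had 28.5 and 32.7 CPM in PC. In HC it had 65.7 and 173 CPM, with no overlap, and did not pass (1.96 ± 0.50, adjusted p = 0.0812). Erlin1, which takes part in the control of Srebf precursors in the endoplasmic reticulum, stood at 28.7 and 32.7 CPM in PC against 10.1 and 10.9 in HC (-1.55 ± 0.33, adjusted p = 0.0583). Acat1, a mitochondrial thiolase of ketone body metabolism, and Acat2, the cytosolic thiolase that starts the mevalonate route, were at -1.11 ± 0.35 and -1.41 ± 0.54, and Mbtps1, the protease that makes the initial cut in the Srebf precursors, at -0.57 ± 0.28. Elovl5, Acsl3 and Fads1 of fatty acid elongation, activation and desaturation were at -1.13 ± 0.30, -1.52 ± 0.54 and -0.83 ± 0.30. None of these 6 passed, with adjusted p-values from 0.0875 to 0.248.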

How the data were processed

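The authors ran Trimmomatic 0.36 and kallisto 0.43.1, which assigns reads to transcripts by likelihood, with mm10, per the submitters' processing notes. The deposited tables give, per the file headers, an estimated count and a TPM value for each transcript. Per the labels' protocols, a library kit for degraded RNA was used. Not given in the sources used here is the strand setting, so antisense or overlapping genes may share reads. The GENCODE M21 annotation (GRCm38) matched 107987 of 109282 transcripts, and coordinates are from it.

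Estimated counts were summed per gene, rounded, filtered with filterByExpr (16607 genes), scaled by TMM and tested with edgeR 4.0.16 (quasi-likelihood, two-sided), adjusted by Benjamini-Hochberg over the genes tested. CPM values carry the TMM scaling. Fold changes are HC over PC, with standard errors derived from the coefficient and F statistic. The alternatives were DESeq2 1.42.0, library size alone, no filter, limma 3.58.1 on log2(TPM + 1) with a mean TPM of at least 0.5, a length offset, leaving out mitochondrial genes and Gm10800, leaving out each library, and, chosen after seeing the data, coding transcripts only. Promoter motifs were searched in RefSeq windows. Replicates of a group differed by more than sampling noise.

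The members and gene lists were chosen with earlier results of these data known. All 30 members are named, as are the other lipid genes that passed and the 3 with the lowest p among the rest of each sub-list.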

Additional observations from a re-analysis of the deposited data

How the results depend on the processing

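With scaling to library size alone, with limma on TPM and with coding transcripts only, 0 members, 0 other lipid genes and 0 of all genes passed as higher or lower, and 11, 8 and 9 of the 30 members had an unadjusted p under 0.05, beside 4394 of 16607, 3877 of 16362 and 3977 of 15857 genes. DESeq2 gave 3 members higher and 6 lower, 3 and 7 other lipid genes, and 1621 and 1435 of all genes. Without the filter these were 2 and 4, 3 and 5, and 963 and 965. The length offset left 1 member higher and 0 lower, 1 and 1 other lipid genes, and 268 and 165 of all genes. Leaving out each library gave 1 to 3 members higher and 1 to 12 lower, 1 to 7 and 2 to 10 other lipid genes, and 379 to 3331 and 257 to 3775 of all genes. The largest member counts were those without HC 4. Leaving out mitochondrial genes and Gm10800 kept all 5 member calls. The cause of these changes was not tested.

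Library size alone put the median of all genes at -0.29 in place of -0.04. The sterol synthesis median was -0.14 under it, -0.35 with limma on TPM, and -0.31 to 0.20 when leaving out each library. Signs turned with library size alone for Hmgcs1 (-0.011), Idi1 (-0.13), Cyp51 (-0.14) and Nsdhl (-0.071), and with limma on TPM for Hmgcs1 (-0.34), Idi1 (-0.35), Msmo1 (-0.12), Nsdhl (-0.22) and Hsd17b7 (-0.31). Insig1 turned with the length offset (0.065). Leaving out each library gave -0.313 to 0.208 for Insig1 (above 0 without PC 1), -0.094 to 0.224 for Cyp51 (below 0 without PC 2 or HC 4), -0.31 to 0.70 for Hsd17b7 (below 0 without HC 4) and -2.38 to 0.32 for Acss2 (above 0 without HC 3). No paired analysis was possible because the groups share no replicate number. A left-out library leaves its group with 1 sample, which is assumed to vary like the other group. Genes of few counts, such as Acss2 and Tm7sf2, are the least precise.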
